A study of Mus musculus with 4 samples.

Results

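H3K9me2 regions that lie in the bodies of noncoding genes were examined in neural stem cells of the mouse embryo. H3K9me2 is histone H3 carrying 2 methyl groups on lysine 9. A region was taken when its centre lay in a gene that the GENCODE M21 annotation holds as a long noncoding RNA (lncRNA), a pseudogene or a small RNA, and in no protein-coding gene, on chromosomes 1 to 19. This gave 2665 regions of 36171 listed, and of 35649 on those chromosomes. The rule uses position only, and no measured value chose the regions.

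The regions came from a ChIP-seq study of 4 samples, each the single sample of its group. In 1 of them PHF2, which removes histone methylation, was precipitated with antibody D45A2 of Cell signaling, and in another H3K9me2 with antibody ab1220 of Abcam; the other 2 were an input for each. All 4 came from neural stem cells of wild type C57BL/6J embryos at day E12.5, cultured with EGF at 20 ng/ml and FGF at 10 ng/ml. The H3K9me2 and PHF2 lists were used, and the inputs were not analysed here. A list of regions holds no expression values, so the cells could not be checked against their markers. Each region has a position and a length. The depth of sequencing is unknown, and with a single sample in each group there are no replicates. All intervals printed are 95% intervals that cover counting error only, and neighbouring regions are not independent of each other.

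H3K9me2 is written mainly by the methyltransferases G9a and GLP, is read by HP1 proteins, and is associated with silent genes and with chromatin at the nuclear lamina. PHF2 belongs to the enzymes that remove it. Many lncRNA genes are long, are transcribed in a few cell types and have most of their length in introns. Processed pseudogenes are copies of spliced mRNAs put back into the genome, whereas unprocessed pseudogenes are disabled gene duplicates that keep the parent's introns.

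Some of the regions themselves show what the list holds. The first 3 are the longest regions of 4 of the 5 genes with most regions, of which a pair shares 1, and the next 2 are among the 5 longest of all 2665. All are written on the plus strand of GRCm38, the mm10 assembly. Capitals mark the central 31 bases, which were searched for across chromosomes 1 to 19, X and Y on both strands.
C230088H06Rik and Gm26624, chr4:147348930-147349161, 232 bp: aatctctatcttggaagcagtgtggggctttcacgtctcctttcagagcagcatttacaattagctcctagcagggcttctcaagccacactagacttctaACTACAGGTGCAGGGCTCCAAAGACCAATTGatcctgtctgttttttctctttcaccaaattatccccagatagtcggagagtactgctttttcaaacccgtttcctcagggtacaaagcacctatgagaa
3110039I08Rik, chr9:41345866-41345972, 107 bp: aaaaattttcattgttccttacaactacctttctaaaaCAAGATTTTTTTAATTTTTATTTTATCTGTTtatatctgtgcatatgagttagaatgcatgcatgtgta
Gm49171, chr14:74351367-74351470, 104 bp: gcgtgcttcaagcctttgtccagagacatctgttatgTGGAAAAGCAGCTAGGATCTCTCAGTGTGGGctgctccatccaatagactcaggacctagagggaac
Gm29538, chr1:88458270-88458526, 257 bp: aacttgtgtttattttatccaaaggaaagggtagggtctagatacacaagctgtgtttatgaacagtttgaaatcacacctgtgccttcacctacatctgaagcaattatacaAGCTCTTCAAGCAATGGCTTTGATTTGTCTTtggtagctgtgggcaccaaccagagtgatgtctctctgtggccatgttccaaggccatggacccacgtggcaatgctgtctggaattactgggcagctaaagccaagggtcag
Gm47157, chr13:34783901-34784136, 236 bp: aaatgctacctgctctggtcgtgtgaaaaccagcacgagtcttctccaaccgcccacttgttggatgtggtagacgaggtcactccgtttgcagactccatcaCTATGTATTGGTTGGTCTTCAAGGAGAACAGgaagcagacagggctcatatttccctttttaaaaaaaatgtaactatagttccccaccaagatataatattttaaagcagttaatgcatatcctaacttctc

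The region shared by C230088H06Rik and Gm26624 had its central bases in 22 copies in the genome, whereas those of the other 4 occurred once. Their GC content ran from 24.3% in the region of 3110039I08Rik to 51.0% in that of Gm49171. The region of Gm47157 lay in an exon, and the others lay in introns. The 257 bases in the lincRNA gene Gm29538, where lincRNA stands for a long intergenic noncoding RNA, are the longest region in any noncoding gene.

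Regions of this kind were short. Of the 2665, 1487 had the minimum length in the list of 73 bp, a share of 55.8% (Wilson interval 53.9% to 57.7%), and 72 (2.70%) reached 150 bp. The share at the minimum length was 56.2% in protein-coding genes and 54.9% in intergenic DNA, so the lengths did not set noncoding genes apart. The mean GC content of the regions was 42.5%, against 42.1% over all windows of 73 bp in noncoding genes. They held 0.516 CpG dinucleotides per 73 bp, against 0.604 in those windows.

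The first question was whether noncoding gene bodies carried more or fewer regions than other DNA. They held 15.7 regions per Mb (exact Poisson interval 15.1 to 16.3), against 13.6 per Mb (13.3 to 13.8) in protein-coding genes and 15.8 per Mb (15.6 to 16.1) in intergenic DNA. The 2665 regions were 7.48% of the regions on chromosomes 1 to 19 and lay in 7.07% of the bases outside assembly gaps, 169 Mb. The ratio of noncoding to protein-coding genes was 1.16 (exact conditional interval 1.11 to 1.21). The ratio of noncoding genes to intergenic DNA was 0.993 (0.954 to 1.03), an interval that holds 1. By density, noncoding gene bodies thus lay above protein-coding genes by a margin beyond counting error, while over all DNA the interval of the ratio to intergenic DNA held 1.

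Densities by chromosome ran from 12.6 per Mb on chromosome 5 to 18.2 per Mb on chromosome 15, with a median of 16.1 per Mb. Noncoding genes had a higher density than protein-coding genes on 18 of 19 chromosomes, the exception being chromosome 6 with 13.5 against 14.6 per Mb. They had a higher density than intergenic DNA on 9 of 19 chromosomes. Leaving out each chromosome in turn kept the ratio to protein-coding genes between 1.15 and 1.18.

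The GC content of the surrounding DNA moved with this comparison. Bins of 1 Mb were split into 4 classes at 39.1%, 41.7% and 44.3% GC. In the lowest class the density was 16.3 per Mb in noncoding genes, against 18.2 per Mb in protein-coding genes, a ratio of 0.894 (0.817 to 0.978), so there the direction was the opposite. In the other classes the ratio was 1.13 (1.05 to 1.22), 1.14 (1.05 to 1.23) and, in the highest, 1.20 (1.08 to 1.33). Against intergenic DNA the ratio was 0.975 (0.897 to 1.06) in the lowest class, 1.10 (1.02 to 1.18) and 0.995 (0.919 to 1.08) in the next ones and 0.911 (0.820 to 1.01) in the highest, so noncoding genes were higher beyond counting error in 1 class. The Mantel-Haenszel ratio over the 4 classes was 1.08 (1.04 to 1.13) against protein-coding genes and 1.01 (0.967 to 1.05) against intergenic DNA. All 3 kinds of DNA had their lowest density in the highest GC class, with 11.1 per Mb in noncoding genes, 9.26 per Mb in protein-coding genes and 12.2 per Mb in intergenic DNA.

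**Figure D1:**
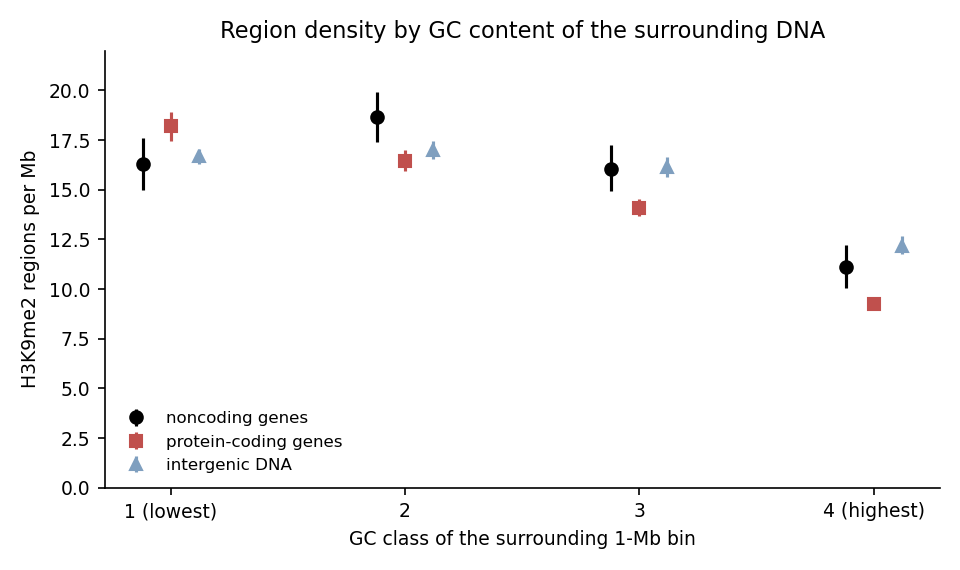
H3K9me2 regions per Mb (vertical axis) by GC class of the surrounding 1-Mb bin (horizontal axis, lowest to highest GC), for noncoding genes, protein-coding genes and intergenic DNA; bars are exact Poisson 95% intervals. Noncoding genes lie below protein-coding genes in the lowest class, at 16.3 against 18.2 per Mb, and above them in the other classes.

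The next comparison was between gene types, which are the types of the annotation. lincRNA genes held 1735 of the regions, 16.4 per Mb (15.6 to 17.2), and this was 1.12 times (1.03 to 1.21) the density of the other noncoding genes. Antisense lncRNA genes, which are transcribed from the strand opposite another gene, held 334 regions, 15.3 per Mb (13.7 to 17.1). Processed transcripts, lncRNAs with no more specific class, held 267 regions, 14.9 per Mb (13.1 to 16.8). The intervals of these 3 types overlap. In single-copy regions per Mb of single-copy DNA, lincRNA genes had 18.7 (17.8 to 19.6), against 18.6 (17.9 to 19.3) in all noncoding genes.

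The smaller lncRNA types had wide intervals. lncRNA genes that share a promoter with a gene on the other strand held 33 regions, 17.4 per Mb (12 to 24.5). TEC genes, which the annotation keeps as awaiting experimental proof, held 51 regions, 16.4 per Mb (12.2 to 21.6), and the remaining lncRNA types held 20, 18.3 per Mb (11.2 to 28.3). Sense intronic genes held 8 regions in 0.188 Mb, 42.5 per Mb (18.3 to 83.7), 2.71 times (1.17 to 5.34) the density of the other noncoding genes. These regions lay in 4 sense intronic genes, and each of the 8 also lay in a gene of another type. lncRNA genes of all types held 2389 regions, 16.1 per Mb (15.4 to 16.7).

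Pseudogenes held 291 regions, 13.1 per Mb (11.6 to 14.7), and differed among themselves. Unprocessed pseudogenes held 132, 10.9 per Mb (9.15 to 13.0), which was 0.679 times (0.566 to 0.810) the density of the other noncoding genes and the lowest of the types with 20 or more regions. Processed pseudogenes held 135, 15.5 per Mb (13.0 to 18.3), and the other pseudogenes 25, 16.9 per Mb (11 to 25). The processed type includes long transcribed genes, such as Gm4804, whose regions lay in introns. In unprocessed pseudogenes 51.2% of windows had central bases that occur once in the genome, against 81.8% over all noncoding genes. Counted as single-copy regions per Mb of single-copy DNA, unprocessed pseudogenes had 19.9 per Mb (16.5 to 23.7), against 18.6 per Mb (17.9 to 19.3) in all noncoding genes, so the low density was not seen in single-copy DNA. In bases that are not soft-masked it was seen, with 12.9 per Mb (10.4 to 15.8) in unprocessed pseudogenes, against 18.7 per Mb (17.9 to 19.5) in all noncoding genes.

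Small RNA genes held 10 regions, 26.9 per Mb (12.9 to 49.5), in 0.372 Mb. They were 3 snoRNA genes, 3 snRNA genes and 4 genes of miscellaneous RNAs, each with 1 region. One of them was Vis1, a miscellaneous RNA gene with a region at chr2:45280694-45280802, and another was the snoRNA gene Gm25224 with a region at chr12:109689474-109689546. Of the 10 genes, 6 lie within a longer noncoding gene, such as Gm25723 within 4930405D01Rik. No region was centred in a miRNA or rRNA gene, which take up 0.0787 Mb and 0.0174 Mb outside protein-coding genes.

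**Figure D2:**
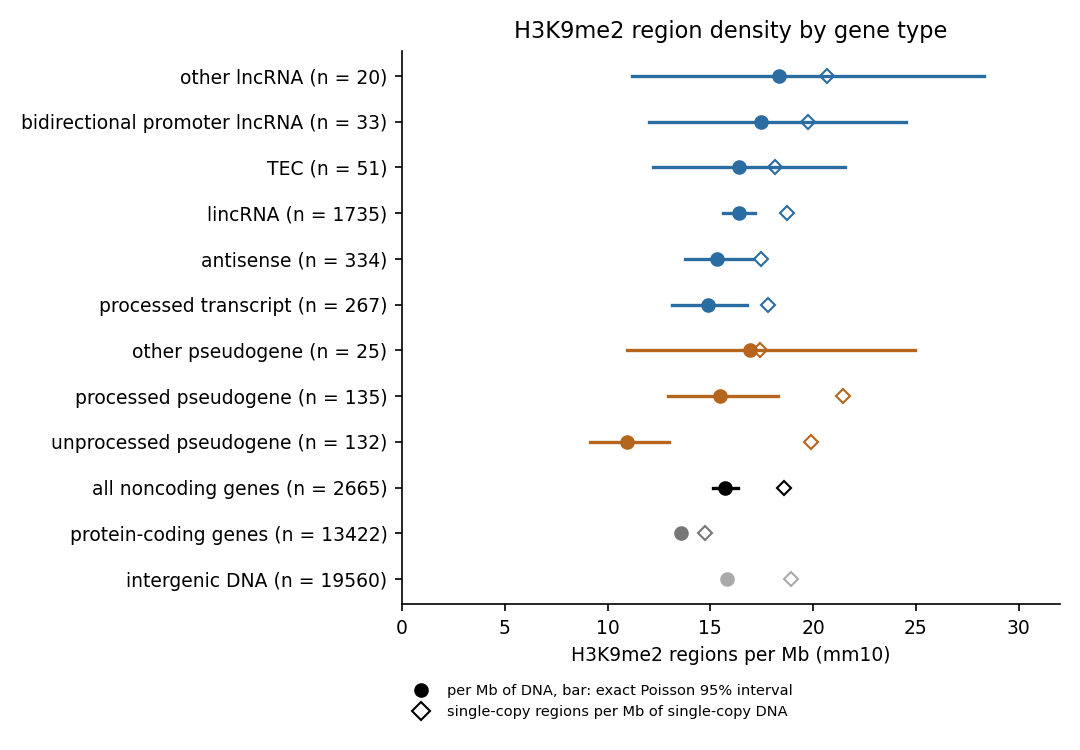
H3K9me2 regions per Mb (horizontal axis) for gene types with 20 or more regions, all noncoding genes, protein-coding genes and intergenic DNA (vertical axis, with the number of regions); filled circles with bars are densities with exact Poisson 95% intervals, and open diamonds are single-copy regions per Mb of single-copy DNA. Unprocessed pseudogenes have the lowest filled circle, at 10.9 per Mb, and their diamond lies at 19.9 per Mb.

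The regions were spread thinly over many genes. Of the 29928 noncoding genes, 1618 held 1 or more regions (5.41%), against 5171 of 20807 protein-coding genes (24.9%). Only 20737 of the noncoding genes had bases outside protein-coding genes and could hold a region by the rule. Protein-coding genes had no such limit, so these shares are not alike. A single region was found in 1088 of the noncoding genes, 2 in 261, 3 to 5 in 214, and 6 to 9 in 44, while 11 genes (0.0368%) held 10 or more. By type, regions were found in 996 of 5209 lincRNA genes (19.1%), 40 of 3204 TEC genes (1.25%), 95 of 2011 unprocessed pseudogenes (4.72%) and 106 of 9193 processed pseudogenes (1.15%). The median length of these genes was 7.56 kb for lincRNA genes, against 0.556 kb for processed pseudogenes. Of the genes of these types, 4970, 1311, 1852 and 7091 had bases outside protein-coding genes, in the order named.

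The share of genes holding a region went with gene length. Among genes with an annotated length of 10 kb or more, 1268 of 4208 held a region (30.1%), and among those with 100 kb or more, 308 of 385 did. These 385 genes held 1045 of the 2665 regions (39.2%). Their bases outside protein-coding genes came to 62.0 Mb, summed gene by gene, where all noncoding genes cover 169 Mb. The density itself varied less, and was 17.2 per Mb (13.4 to 21.8) in genes under 1 kb, 12.9 (11.5 to 14.5) from 1 to 10 kb, 13.7 (13 to 15) from 10 to 30 kb, 16 (15 to 17) from 30 to 100 kb and 17.7 (16.7 to 18.8) at 100 kb or more. In these densities by length, regions and bases shared by overlapping genes count once for each gene, which the intervals do not allow for. By this count the longest genes had a higher density than those of 1 to 30 kb. The 20 genes with most regions, with ties at 8 regions settled by density, held 201 regions, 7.54% of all. They were picked by their counts, so counts above the mean density follow in part from the choice. The intervals given for single genes do not cover it.

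C230088H06Rik, a lincRNA gene at chr4:147018235-147492201 held the most, with 22 regions. It has 329 kb outside protein-coding genes, which gives 66.9 regions per Mb (41.9 to 101), where the mean density of noncoding genes would give 5.17 regions. The gene spans the protein-coding genes Rex2, Zfp991, Zfp988 and Zfp978, the last 3 named as zinc finger genes. The lincRNA gene Gm26624 runs through the same DNA on the other strand, and its 14 regions, 64 per Mb (35 to 107), are all among the 22. Both belong to a chain of 36 overlapping noncoding genes with 29 regions. Of the 22 regions, 16 were longer than the minimum length, and 5 had central bases in more than 1 copy, among them the sequence with 22 copies printed above. The part of repeated DNA in this count was not tested.

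Gm32647, a lincRNA gene of 666 kb on chromosome 7, held 18 regions, against 10.5 regions at the mean density. Its density was 27.0 per Mb (16 to 42.7). None of the 18 was multicopy, and 4 were longer than the minimum. They spanned 516 kb of the gene unevenly, with a median spacing of 8.89 kb. No region lay between 238 and 385 kb from the gene start. Gm49171 on chromosome 14 held 13 regions in 472 kb, 27.5 per Mb (14.7 to 47.1), with a median spacing of 25.8 kb. Gm41335 on chromosome 15 also held 13, in 541 kb, 24 per Mb (12.8 to 41.1). Gm31135 on chromosome 8 held 12 in 440 kb, 27.3 per Mb (14.1 to 47.6). The annotation names these lincRNA genes by identifier only.

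Gm13986, a processed transcript gene on chromosome 2, held 11 regions in 254 kb, 43.3 per Mb (21.6 to 77.5). It had a PHF2 peak within 1 kb of its start. Among the 20 genes with most regions, 2 others had such a peak, Zmiz1os1 and Dcdc5, and 1425 of all 29928 noncoding genes had one. Zmiz1os1, the antisense gene next to the coregulator gene Zmiz1, held 9 regions, 44.6 per Mb (20.4 to 84.7). Dcdc5, annotated in the mouse as a unitary pseudogene, held 9 in 403 kb, 22.4 per Mb (10.2 to 42.4). The remaining genes with 10 regions were 2610307P16Rik, Gm26861 and Gm49317.

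Among pseudogenes, Gm4804 and Dcdc5 had the most regions. Gm4804, a transcribed processed pseudogene of 123 kb on chromosome 12, held 9 regions, against 1.93 regions at the mean density. Its density was 73.4 per Mb (33.5 to 139). No other noncoding gene overlaps Gm4804, all 9 regions were single-copy, and 3 were longer than the minimum. AC169509.1, another transcribed processed pseudogene, held 8 regions in 260 kb, 30.8 per Mb (13.3 to 60.7). The 9 regions of Gm4804 and the 8 of AC169509.1 all had their centres in introns. None was centred in an exon of a noncoding gene. Slco6b1, named for the organic anion transporters, held the most among unprocessed pseudogenes, with 5 regions in 91.4 kb.

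**Figure D3:**
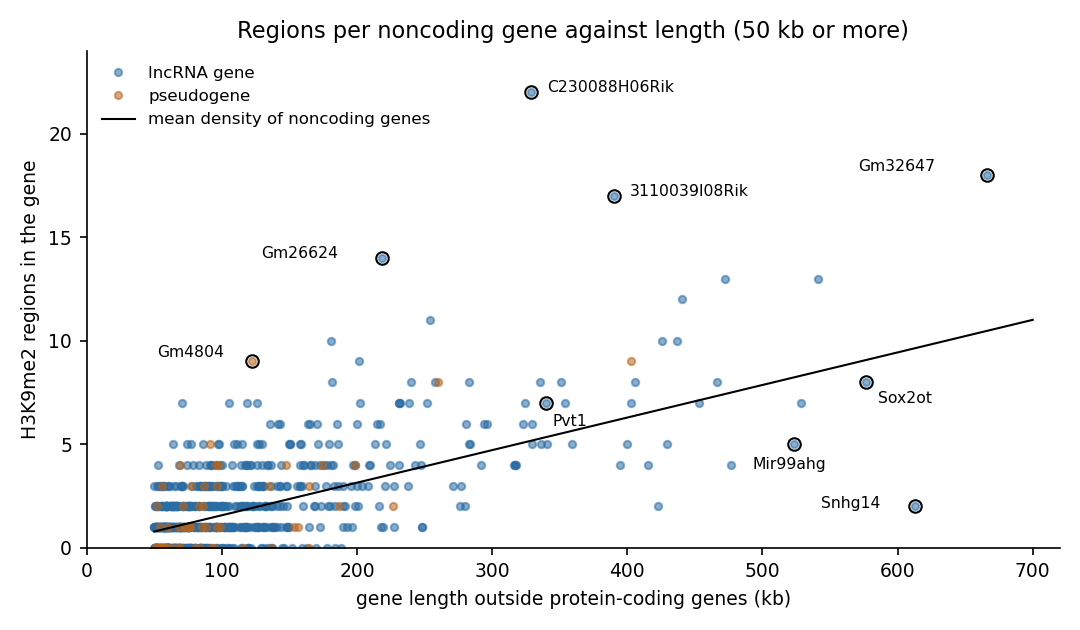
Number of H3K9me2 regions in a gene (vertical axis) against its length outside protein-coding genes in kb (horizontal axis), for noncoding genes of 50 kb or more, with lncRNA genes and pseudogenes as points of different colour; the line is the mean density of noncoding genes, 15.7 per Mb. C230088H06Rik with 22, 3110039I08Rik with 17 and Gm4804 with 9 lie above the line, and Snhg14 with 2 and Mir99ahg with 5 lie under it.

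Genes ranked by density were mostly short and rest on few regions. Among genes of 10 kb or more with at least 3 regions, Gm30411 had 3 in 14.5 kb, 207 per Mb (42.6 to 604), and Gm15723 also had 3, in 14.5 kb outside protein-coding genes. AI838599 had 3 regions of 120, 151 and 96 bp that lay within 1.33 kb of each other, and counting regions within 1 kb once left 1. Gm39033 and Gm36011 overlap on opposite strands and share the same 4 regions, of which the longest has 168 bp. The intervals of these genes overlap one another, so their order is not resolved.

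3110039I08Rik on chromosome 9, a processed transcript gene, is the host of the miRNA genes Mir100, Mirlet7a-2 and Mir125b-1. It held 17 regions in 390 kb, against 6.13 regions at the mean density, and had 43.6 per Mb (25.4 to 69.8). The lincRNA gene Gm49317 lies within it and shares its own 10 regions with it, and 13 of the 17 regions lie in Gm49317 or another noncoding gene of the locus as well. Of the 17 regions, 4 lay in exons of a noncoding gene, 6 were longer than the minimum and none was multicopy. Mir99ahg on chromosome 16 hosts a related cluster of miRNAs and held 5 regions in 524 kb, against 8.23 regions at the mean density. Its density was 9.55 per Mb (3.10 to 22.3). Among the mature sequences compared, the clusters share the seeds of miR-100 with miR-99a and of miR-125b. The product of Mirlet7a-2 in 3110039I08Rik was not included, so let-7 seeds were not compared between the clusters. The sequences are taken from RefSeq (GRCm38.p6) with the seed, bases 2 to 8, in capitals.
mmu-miR-100-5p, in 3110039I08Rik: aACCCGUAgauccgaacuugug
mmu-miR-99a-5p, in Mir99ahg: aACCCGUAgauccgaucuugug
mmu-miR-125b-5p, in both: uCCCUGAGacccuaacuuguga
mmu-let-7c-5p, in Mir99ahg: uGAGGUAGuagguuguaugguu

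The density in 3110039I08Rik was 4.57 times (1.62 to 15.8) that in Mir99ahg, a pair that was chosen after the values had been seen. No region was centred in a miRNA gene. Distances were taken for the miRNAs printed above, and not for Mirlet7a-2, to which a region may lie closer. In 3110039I08Rik the nearest regions were 5.63 kb from mmu-miR-100-5p and 11.5 kb from mmu-miR-125b-5p. In Mir99ahg the nearest regions were 25.1 kb from mmu-miR-99a-5p, 24.4 kb from mmu-let-7c-5p and 22.2 kb from mmu-miR-125b-5p. Of 6 miRNA host genes of the list that were found in the annotation by symbol, Mir99ahg alone held a region. The listed symbol Mir100hg was not found, and 3110039I08Rik, the host of Mir100 in this annotation, is therefore not counted there. The others with bases outside protein-coding genes were short, with 12.1 kb in Mir155hg, 3.85 kb in Mir17hg, 1.69 kb in Mir142hg and 0.176 kb in Mir22hg.

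**Figure D4:**
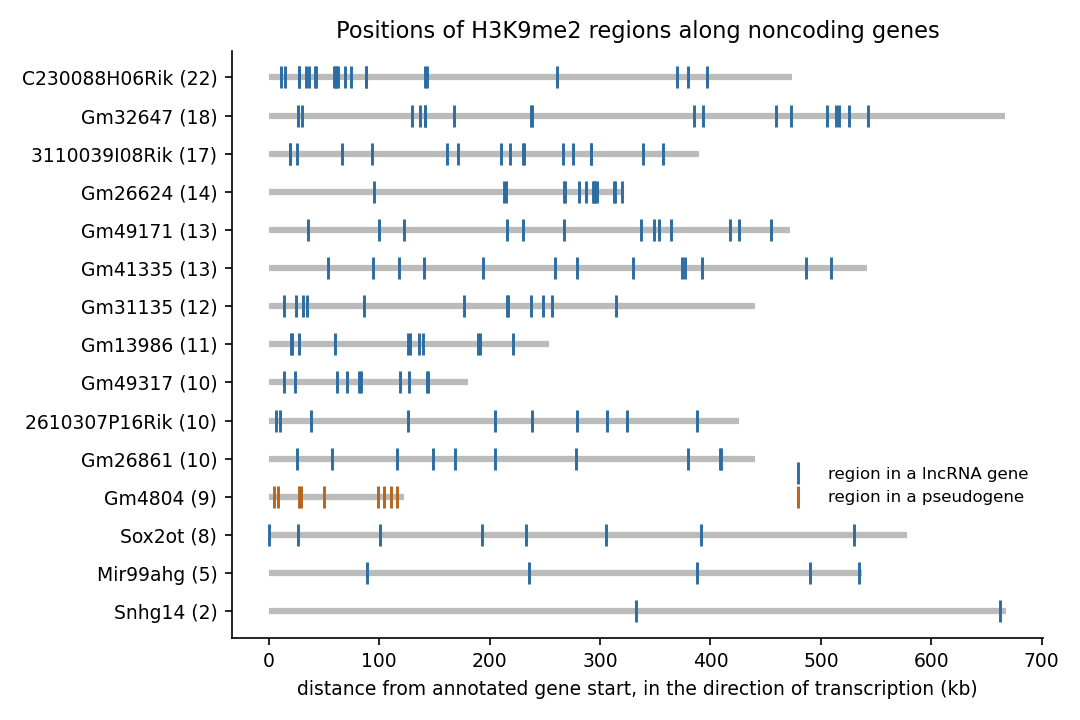
Positions of H3K9me2 regions (ticks) along 15 noncoding genes, as distance in kb from the annotated gene start in the direction of transcription (horizontal axis), with genes down the vertical axis and their number of regions in parentheses; grey bars span the annotated gene. Most of the 22 regions of C230088H06Rik lie within 150 kb of its start, whereas the 18 of Gm32647 span 516 kb of the gene unevenly.

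Imprinted lncRNA genes, which are expressed from 1 parental allele, held few regions. Of 9 listed, 7 had bases outside protein-coding genes and 3 held a region, with 4 regions in 0.798 Mb, 5.01 per Mb (1.37 to 12.8), against 15.7 per Mb in all noncoding genes. Snhg14, which hosts clusters of snoRNAs and runs antisense to Ube3a, held 2 regions in 613 kb, against 9.63 regions at the mean density. Its density was 3.26 per Mb (0.395 to 11.8). Both regions had the minimum length. Rian, a snoRNA host of the imprinted cluster that also holds Meg3, had 1 region of 126 bp, and Airn, which silences Igf2r on the paternal allele, had 1 region of 75 bp whose central bases occur in 2 copies. No region was centred in Meg3, Mirg, H19 or Nespas, and the upper limit of a count of 0 is 3.69 regions, so for genes this short a density near the mean could not be told from 0. Kcnq1ot1 and Peg13 lie wholly in protein-coding genes and hold no region by the rule. Snhg14 makes up most of the length of the list.

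Among lncRNA genes of neural tissue, 14 of 17 listed were found and 5 held a region, with 15 regions in 1.20 Mb, against 18.9 at the mean density (exact Poisson interval of the count per Mb 7.0 to 20.6). Sox2ot, whose body contains Sox2, a transcription factor of neural stem cells, held 8 regions in 576 kb, against 9.06 regions at the mean density. Its density was 13.9 per Mb (5.99 to 27.4), against 15.7 per Mb in all noncoding genes. The first of the 8 regions lay 0.419 kb from the annotated start of Sox2ot, in an exon of a noncoding gene, at chr3:34104653-34104725. Otx2os1, on the strand opposite the forebrain gene Otx2, held 4, all at the minimum length of 73 bp. Rmst, described in human cells as a partner of SOX2 in neurogenesis, Dlx6os1, which regulates the Dlx genes of the ventral forebrain, and Pantr1, next to Pou3f3, held 1 region each. The other 9 genes, among them Miat, Crnde and Sox1ot, held none, the longest having 46.2 kb outside protein-coding genes.

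Of 13 ubiquitously expressed lncRNA genes found in the annotation, 2 held a region, and 11 had a PHF2 peak within 1 kb of the start, against 1425 of all 29928 noncoding genes. They held 8 regions, 17.4 per Mb (7.49 to 34.2), where the mean density would give 7.25. Pvt1, a neighbour of Myc, held 7 regions in 340 kb, 20.6 per Mb (8.27 to 42.4), and Dleu2, a miRNA host, held 1. None was centred in Malat1, Neat1, Gas5 or Tug1, which are short, with 20.8 kb in Neat1 and 9.41 kb or less in the others.

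Pseudogenes of gene families were counted by symbol, and of all pseudogenes 1.85% held a region, with 13.1 regions per Mb. Olfactory receptor pseudogenes held 11 regions in 10 of 271 genes, 23.3 per Mb (11.6 to 41.7). Olfr300-ps1 had 2 of them, 1.12 kb apart. Vomeronasal receptor pseudogenes held 12 regions in 11 of 231 genes, 9.24 per Mb (4.78 to 16.1), and Vmn2r-ps69 had 2. Both families descend from receptors of chemosensory neurons. Ribosomal protein pseudogenes, which are retrocopies, held 1 region in 256 genes, in Rpl23a-ps12. They have 0.124 Mb outside protein-coding genes, which gives 8.09 per Mb (0.205 to 45.1). The mean density of noncoding genes would give 1.94 regions there. Zinc finger pseudogenes held 1 in 17, in Zfp783, 5.34 per Mb (0.135 to 29.8), against 2.94 regions at the mean density. The single Gapdh pseudogene found by symbol held none.

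Within the genes, exons held 298 regions, 14.9 per Mb (13.3 to 16.7), against 15.8 per Mb (15.2 to 16.5) in introns, a ratio of 0.943 (0.833 to 1.06). In bases that are not soft-masked as repeats, this ratio was 0.830 (0.725 to 0.946), with 15.9 per Mb in exons and 19.1 per Mb in introns. The first 1 kb of the genes held 182 regions, 13.4 per Mb (11.5 to 15.5), against 15.9 per Mb (15.3 to 16.6) in the rest of the bodies, a ratio of 0.843 (0.721 to 0.980). It was 0.812 (0.716 to 0.918) for the first 2 kb and 0.839 (0.762 to 0.923) for the first 5 kb. Genes that end within these windows count wholly or mostly as start. In the 2505 genes of 20 kb or more, followed from 20 kb before to 20 kb after the start, the first 2 kb held 15 per Mb (11.5 to 19.3), against 14.2 per Mb (10.6 to 18.7) in the 2 kb before it, and steps of 2 kb inside the gene ran from 11.8 to 18.4 per Mb, so no dip at the start was seen there. Along genes of 10 kb or more, 10 equal parts of the length ran between 14.9 and 16.9 per Mb, with 16.1 per Mb in the first part and 16.9 per Mb in the last.

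PHF2 peaks lay far from most of the regions. The median distance to the nearest PHF2 peak was 274 kb, against 168 kb for regions in protein-coding genes and 362 kb for intergenic ones. Of the 2665, 72 (2.70%, 2.15% to 3.39%) lay within 10 kb of a peak, against 4.63% in protein-coding genes and 2.31% in intergenic DNA. A single region overlapped a PHF2 peak, at chr2:79457655-79457727 in Gm26755, 56 bp from the centre of the peak and 906 bp from the start of the protein-coding gene Cerkl. In protein-coding genes 3 of 13422 regions overlapped a peak, and in intergenic DNA 0 of 19560 did, so overlap was rare in every kind of DNA. The next shares also count genes that lie wholly in protein-coding genes and can hold no region by the rule. Of 1425 noncoding genes with a PHF2 peak within 1 kb of the start, 105 (7.37%) held a region, against 5.41% of all noncoding genes. The bodies of these genes had 14.8 regions per Mb (12.9 to 17.1), against 15.8 per Mb (15.2 to 16.4) in the other noncoding genes, a ratio of 0.940 (0.810 to 1.09).

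The regions lay in repeated DNA less often than the DNA around them. Of the 2665, 434 (16.3%, 14.9% to 17.7%) had 37 or more of their central 73 bases soft-masked as repeats in the reference, against 29% of all 73-bp windows in noncoding genes. Central 31 bases that occur in more than 1 place were found in 89 regions (3.34%, 2.72% to 4.09%), against 18.2% of windows. A tandem repeat of units of 1 to 6 bases was found in 1 region (0.0375%), against 0.762% of windows. The same held in protein-coding genes, with 2.39% multicopy regions against 10.2% of windows, and in intergenic DNA, with 4.25% against 19.8%. The handling of reads from repeated DNA in making the list is not stated, and its part in these shares was not tested.

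The difference was also seen in density. Bases that are not soft-masked held 18.7 regions per Mb (17.9 to 19.5) in noncoding genes, against 15 per Mb in protein-coding genes and 19.5 per Mb in intergenic DNA. Soft-masked bases held 9.57 per Mb (8.77 to 10.4) in noncoding genes, against 9.66 per Mb in protein-coding genes and 10.1 per Mb in intergenic DNA. The ratio of noncoding to protein-coding genes was 1.25 (1.19 to 1.31) outside repeats, and 1.16 (1.10 to 1.21) there over the 4 GC classes. Of all regions, 17 (0.638%) resembled another listed region over 50 bp or more at 90% identity, so few were copies of one another.

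**Figure D5:**
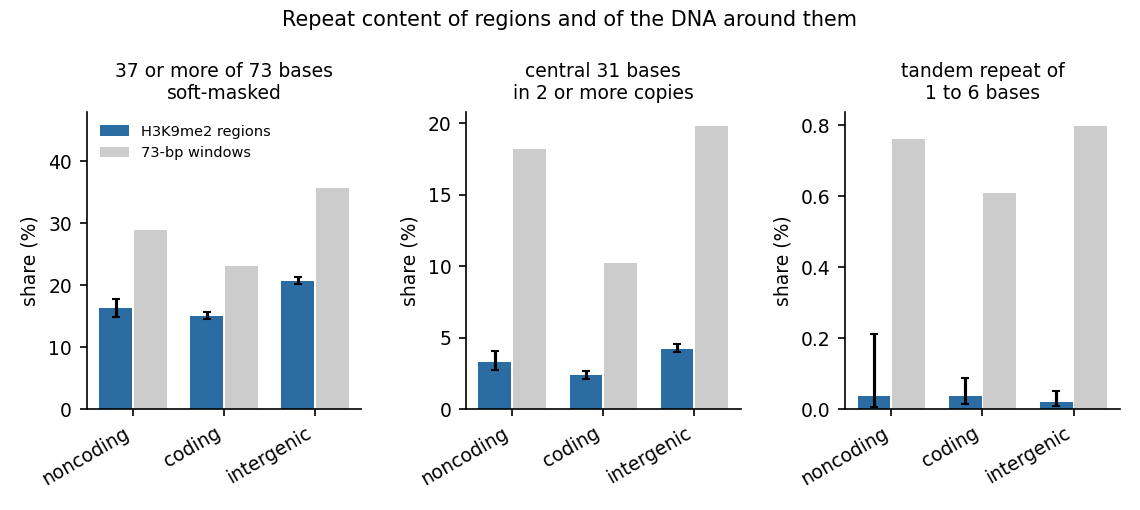
Share in percent (vertical axes) of H3K9me2 regions and of 73-bp windows whose central bases are soft-masked, occur in 2 or more copies, or form a tandem repeat (3 panels), in noncoding genes, protein-coding genes and intergenic DNA; bars on regions are Wilson 95% intervals. Regions lie under the windows in all 3 panels, with 3.34% against 18.2% multicopy in noncoding genes.

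A region of Zmiz1os1, chosen after the values had been seen, shows the exception. Its central bases, in capitals, are a run of alternating A and G that matches at 864421 positions over both strands. Overlapping positions within a longer run are each counted, so this is not a number of separate loci.
Zmiz1os1, chr14:25430515-25430672, 158 bp: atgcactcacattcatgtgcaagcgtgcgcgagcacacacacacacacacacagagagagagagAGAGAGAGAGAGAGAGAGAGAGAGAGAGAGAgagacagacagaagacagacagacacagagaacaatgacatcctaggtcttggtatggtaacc

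Spacing was close to that of the other regions. The median distance to the nearest other H3K9me2 region was 19.6 kb, against 21.1 kb in protein-coding genes and 20.1 kb in intergenic DNA. Of the 2665, 114 (4.28%, 3.57% to 5.11%) had another region within 1 kb, against 3.95% in protein-coding genes and 4.36% in intergenic DNA. The short runs in AI838599 and in C230088H06Rik, where 22 regions became 19 when those within 1 kb were counted once, are among them.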

How the data were processed

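The H3K9me2 list and the PHF2 peak list of 1 ChIP sample each were used. The submitters' processing notes name Bowtie2 and the mm10 genome. The PHF2 peaks were called with MACS, per the file headers. The H3K9me2 list's caller is not given in the sources used here. Both deposited lists hold positions and a score, and the score of every H3K9me2 region is 0, so the score was not used.

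Region centres were placed on GRCm38 with GENCODE M21 genes, using Python 3.11.15, numpy 2.4.6, pandas 2.3.3 and scipy 1.17.1. Densities are counts per Mb outside assembly gaps, with exact Poisson intervals, and ratios have exact conditional binomial intervals. No p-values were computed, since each group has 1 sample. A region or base in genes of several types counts for each type. Soft-masking is that of the reference. Copies of the central 31 bases were counted on both strands, with every 100th window of 73 bp as background. Similarity was searched with BLAST 2.17.0. The densities, ratios and intervals were tested on simulated counts, and the placing of centres was checked on a sample of the listed regions.

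The genes named are the 20 with most regions, the 10 densest of 10 kb or more with at least 3 regions, the leading gene of each type with 20 or more regions, those of the 5 longest regions, and lists of imprinted, neural, ubiquitous and miRNA host lncRNA genes and of pseudogene families. The members and lists were chosen with earlier results of these data known. Not every gene or sequence that the rule chose is reported here. The 522 regions on X and scaffolds and 2 in immunoglobulin and T cell receptor segments were left out. Alternatives are given in the closing section, and those for single-copy DNA and for soft-masking by type and within genes were added after seeing the data.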

Additional observations from a re-analysis of the deposited data

How the results depend on the processing

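The ratio of noncoding to protein-coding genes stayed above 1 under the alternatives run over all GC classes. The ratio to intergenic DNA lay on both sides of 1, from 0.961 outside soft-masked bases to 1.04 (1.00 to 1.09) with gap bases counted. The lower density of unprocessed pseudogenes was not seen in single-copy DNA, but was in bases that are not soft-masked, with 12.9 per Mb. The H3K9me2 list is named with a p threshold, but the test behind that threshold is not given. The depth of the samples and the spread between cultures are also unknown, which limits the counts to this list. Leaving out each chromosome in turn gave 15.6 to 15.9 regions per Mb in noncoding genes, with ratios of 1.15 to 1.18 to protein-coding genes and 0.987 to 1.00 to intergenic DNA. No paired analysis was possible because each group has 1 sample and no test was run.

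Keeping only regions longer than the minimum left 1178 regions and 6.95 per Mb. By type this gave 7.34 per Mb in lincRNA, 6.11 in antisense, 6.74 in processed transcript, 8.99 in bidirectional promoter lncRNA, 8.25 in other lncRNA and 7.40 in TEC genes, 6.52 in processed, 5.14 in unprocessed and 7.45 in other pseudogenes. Bases that are not soft-masked gave 18.7 per Mb in all noncoding genes, 19.3 in lincRNA, 17.5 in antisense and 18.7 in processed transcript genes and 19.2 in processed pseudogenes. They gave ratios of 1.25 to protein-coding genes and 0.830 of exons to introns. Single-copy DNA gave 18.7 per Mb in lincRNA, 17.4 in antisense and 17.8 in processed transcript genes, 21.5 in processed and 19.9 in unprocessed pseudogenes, and a ratio of 1.26 to protein-coding genes. The GC-adjusted ratio to protein-coding genes was 1.08, and counting gap bases gave 1.04 to intergenic DNA. A tandem repeat at 90% identity was found in 0% of regions, soft-masking of all central bases in 3.98%, of the centre base in 19.8%, and more than 10 copies in 0.976%. Of 216 alternative counts for named genes, 181 lay within the counting interval and the other 35 outside, each lower when only longer regions were kept.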

Other observations

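Several noncoding genes around Myc, the growth-promoting transcription factor gene on chromosome 15, held more regions than their length gives at the mean density. They were put together after the values had been seen, so their sum is a description and its interval does not cover that choice. Gm29904 held 7 regions in 105 kb and D030024E09Rik 8 in 240 kb, on one side of Myc at 592 and 211 kb from it. On the other side Pvt1 held 7 in 340 kb, 47.6 kb from Myc, and Gm41335 held 13 in 541 kb, 1186 kb away. The mean density would give 3.77 regions in D030024E09Rik, 5.35 in Pvt1 and 8.51 in Gm41335. Each of these lies within the counting interval of the gene's own count. Gm29904 had 66.4 regions per Mb. The 4 genes held 35 regions in 1.23 Mb, 28.5 per Mb (exact Poisson interval 19.9 to 39.7).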
